A study of Arabidopsis thaliana with 8 samples.

Results

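Transcripts of cell wall enzyme families were compared between Arabidopsis thaliana seedlings labelled E2Fa-Dpa and wildtype seedlings. The families are the expansins, the xyloglucan endotransglucosylase/hydrolases (XTH), the glucanases of glycoside hydrolase family 9 (GH9) and the cellulose synthase-like enzymes (CSL). Earlier results of these data were known when the members were chosen. They were taken by name, as probe sets whose single annotated symbol starts with EXPA, EXPB, EXLA, EXLB, XTH, GH9 or CSL. This gave 49 probe sets, each of 1 gene, out of 22746 probe sets tested and 13356 genes with a probe set of their own. They are 18 expansins, 9 XTH, 15 GH9 and 7 CSL. A further 4 probe sets are annotated with a pair of family genes each and were left out, and so was ATCSLC08, whose symbol does not start with these letters. Any family gene under another kind of symbol, or on the 8730 probe sets without a symbol, would be missed as well. Counts by family below are therefore of these members and not of whole families.

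The data were MAS5 signals, linear intensities scaled by the authors, from 8 ATH1 arrays, 4 of E2Fa-Dpa and 4 of wildtype whole seedlings. Both groups were of the Col-0 accession and were taken from agar plates under 16 h of light and 8 h of dark, 6 days after germination. How seedlings of the E2Fa-Dpa group were made is not stated in the labels, and neither is whether samples of a group were grown apart. The p-values given therefore reflect the spread among these arrays, which may be technical. E2Fa and DPa are transcription factors that act as a dimer on genes of the cell division cycle, and E2F targets are the subject in the series' title.

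A growing plant cell is held by cellulose fibres that are tied together by xyloglucan and other polysaccharides, and it enlarges when this network is loosened and refilled. Alpha- and beta-expansins (EXPA and EXPB) loosen the contacts between the polymers without cutting them. No such activity is taken as given here for the expansin-like groups (EXLA and EXLB). XTH enzymes cut xyloglucan chains and rejoin them, or hydrolyse them, and GH9 enzymes cut glucan chains. CSL enzymes build the backbones of wall polysaccharides in the Golgi apparatus or at the cell surface, the CSLC group that of xyloglucan and the CSLA group that of mannans.

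Before the results, an unevenness of the arrays has to be given. Bacillus control RNAs gave signal on 4 arrays, replicates 1 and 4 of E2Fa-Dpa and replicates 3 and 4 of wildtype, with a mean of 73.7 to 108 over the dap probe sets, and of 1.92 to 2.92 on the remaining 4. The arrays of one group within one such array set formed 4 close pairs, with correlations of 0.9743 to 0.9941, against 0.9101 to 0.9682 for all other pairs of arrays. Results are therefore also given from a fit blocked by array set and from within each set, which leaves 2 arrays per group. Were a pair to stem from 1 RNA, fewer independent samples than the 4 per group given here would remain.

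Of the 49 wall genes 8 fell in the E2Fa-Dpa seedlings and none rose (limma with Benjamini-Hochberg adjustment over all probe sets). At an unadjusted p under 0.05, 14 members were lower and 1 higher. For unadjusted p-values, here and below, no share over all probe sets is given to compare with. Those that fell were the expansin-like genes EXLA1, EXLA2 and EXLB1, the beta-expansin EXPB3, the glucanases GH9B8 and GH9B13, the xyloglucan backbone synthase CSLC04 and the mannan synthase family member CSLA03. They made up 16.3% of the members, and over all probe sets 2.94% fell and 4.36% rose. In whole seedlings, fewer cells of a type and less RNA per cell cannot be told apart. The count dropped to 4 when E2Fa-Dpa replicate 1 or 4 was left out and to 5 when wildtype replicate 1 was. In each of the 8 genes the 4 E2Fa-Dpa signals lay below the 4 wildtype signals. As these arrays also gave the calls, that is no separate test. Such a separation of the groups was seen in 10 of the 49 members, or 20.4%, and in 6.77% of all probe sets. All E2Fa-Dpa signals lay above the wildtype ones in 1 member, the dim EXPA24, and in 9.53% of all probe sets.

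Values below 0 were not limited to the called genes. The log2 fold change, E2Fa-Dpa minus wildtype on the log2(signal + 16) scale, was below 0 for 41 of the 49 members, or 83.7%, and for 49.2% of all probe sets. The median was -0.26 over the members and 0.00 over all probe sets. By family the medians were -0.33 for the expansins, -0.35 for XTH, -0.18 for GH9 and -0.25 for CSL. All 9 XTH and all 7 CSL members had a value below 0 (ATCSLC08, left out by its spelling, had 0.22), as had 15 of 18 expansins and 10 of 15 GH9 genes. These medians count dim probe sets, whose changes the added 16 holds close to 0. Of the members 19 had a mean signal under 16, among them 10 of the 15 GH9 genes, and 27 had at least 32. Among those 27, 26 had a value below 0, against 5508 of the 12800 probe sets of that brightness. Of the 27, 7 had fallen, or 25.9%, against 4.25% of the 12800.

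**Figure D1:**
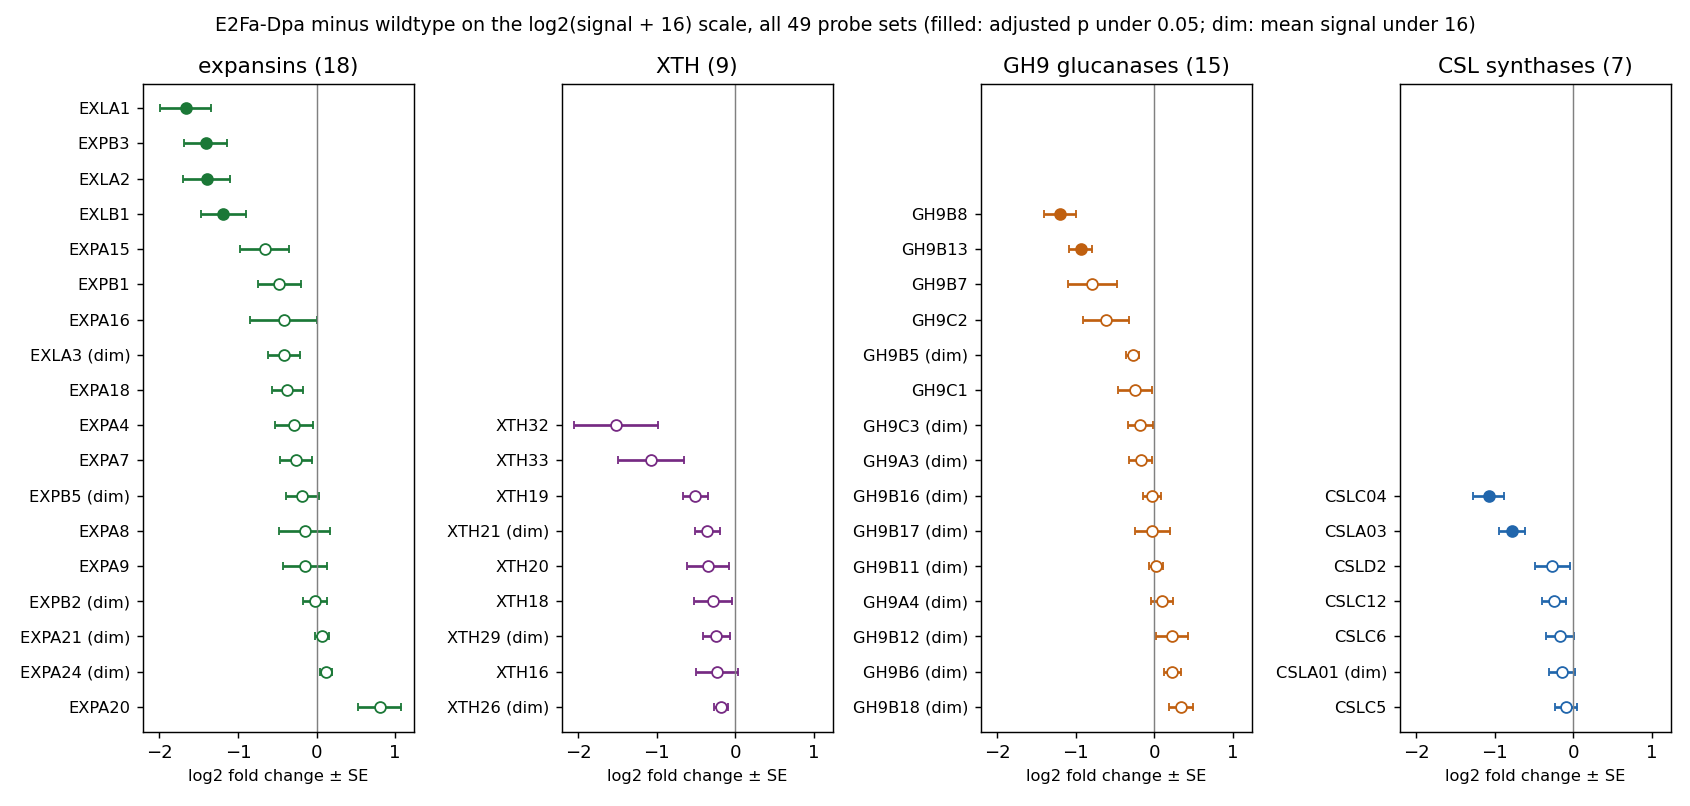
Log2 fold change with its standard error for each of the 49 probe sets, E2Fa-Dpa minus wildtype, in 4 panels by family. Filled points passed an adjusted p of 0.05 and open points did not. The 8 filled points all lie left of 0, and EXPA20 lies furthest to the right, at 0.80.

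In the fit blocked by array set 14 members fell and 1 rose, where 9.77% of all probe sets fell and 11.7% rose. All 8 genes named above were among the 14, and the fall covered 28.6% of the members. The genes that passed when blocked by array set but not unblocked were EXPB1, XTH19, XTH32, XTH33, GH9B5 and GH9B7, which fell, and EXPA20, which rose. With each close pair of arrays as a random block, which takes the arrays of a pair as related, the 8 falls were reduced to 1, GH9B13 (adjusted p = 0.037), where 0.466% of all probe sets fell and 1.53% rose.

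**Figure D2:**
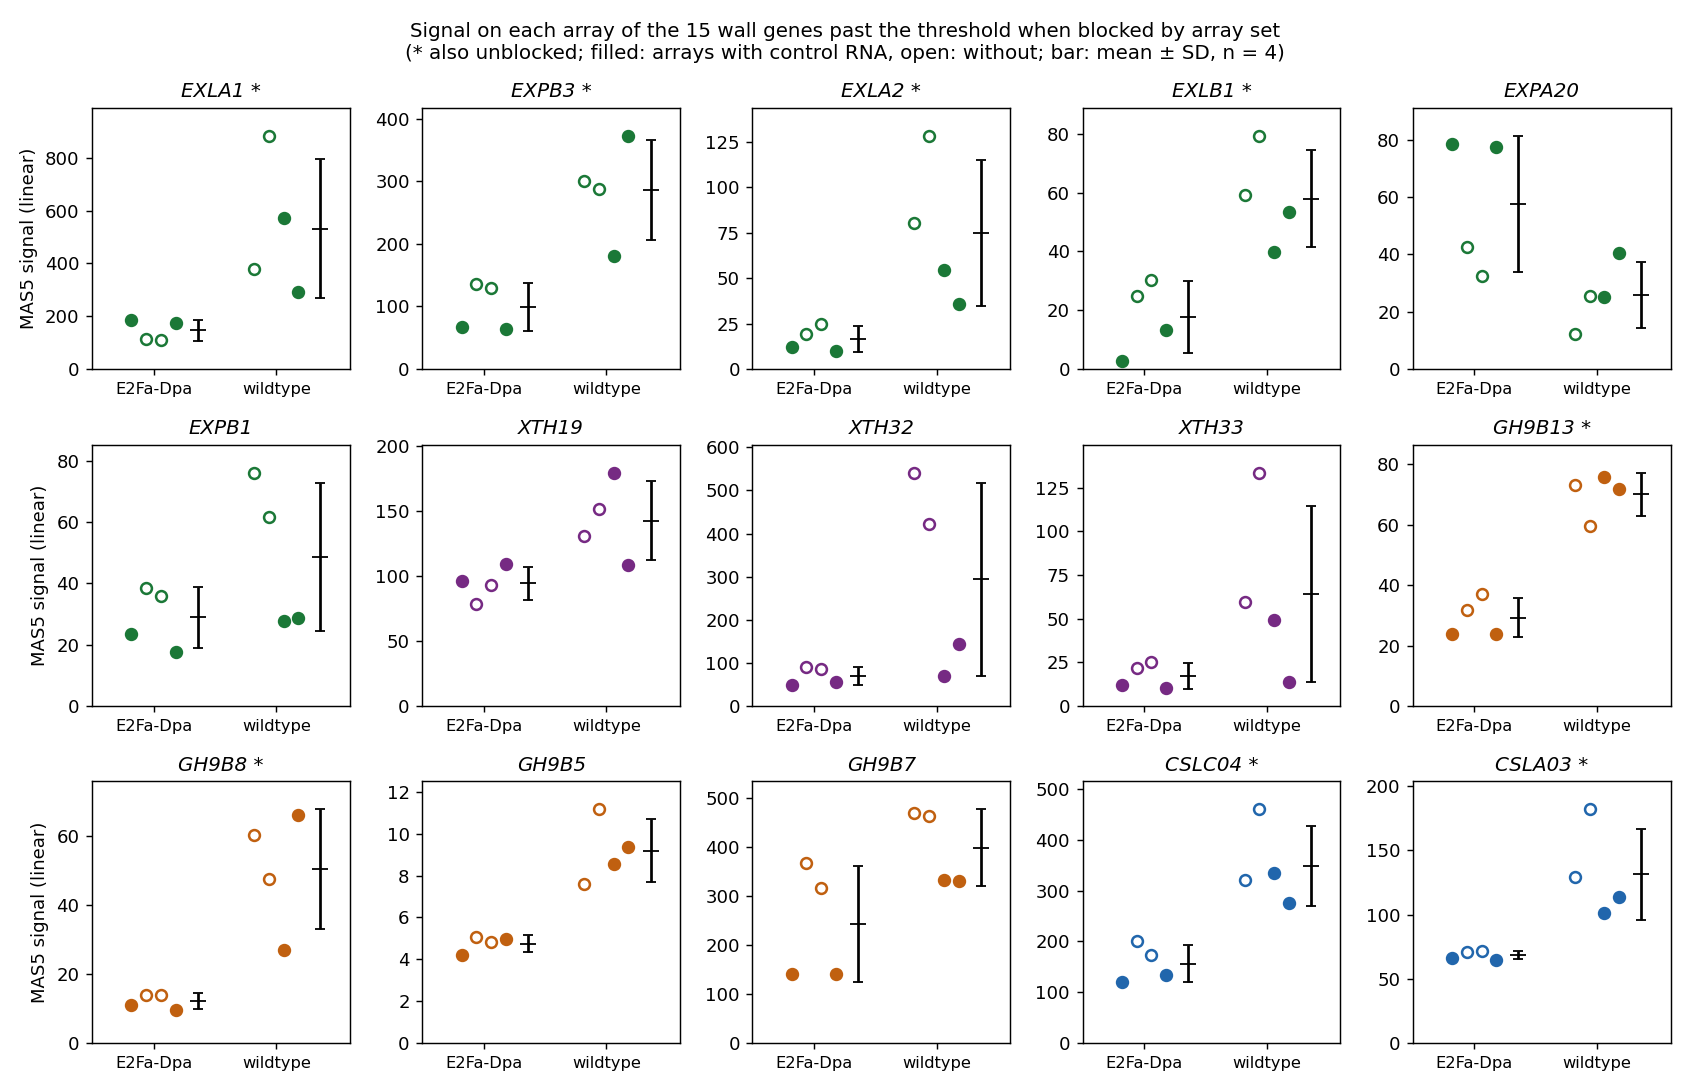
MAS5 signal (linear, from 0) on each array for the 15 genes past the threshold in the fit blocked by array set, E2Fa-Dpa left and wildtype right, with the mean and SD of 4 arrays beside the points. Filled points are arrays with control RNA and open points arrays without it. In XTH32 the open wildtype points, 422 and 542, stand far above the filled ones, 69.2 and 143.

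The expansins hold 4 of the 8 fallen genes, and none of these is an alpha-expansin. EXLA1 (AT3G45970), of the expansin-like group A, had signals of 184, 113, 112 and 175 in E2Fa-Dpa replicates 1 to 4, against 378, 884, 572 and 290 in wildtype replicates 1 to 4. Its mean was 146 ± 39.0 in E2Fa-Dpa and 531 ± 263 in wildtype (SD, n = 4 each), so that 27.5% of the wildtype mean was left. The groups did not overlap, although the wildtype arrays differed widely among themselves. The log2 fold change was -1.66 ± 0.32 (SE, adjusted p = 0.0157), the lowest among the 49 members.

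EXLA2 (AT4G38400), a second member of that group, which is known from mutants with altered resistance to the grey mould Botrytis, had 12.2, 19.4, 24.9 and 9.71 in E2Fa-Dpa, against 80.2, 128, 54.3 and 35.8 in wildtype. Its E2Fa-Dpa signals were all low and its wildtype signals higher on each array, at a log2 change of -1.40 ± 0.30 (SE; adjusted p = 0.0247). The remaining group A gene, EXLA3 (AT3G45960), is the direct neighbour of EXLA1 on chromosome 3. It was dim, with 5.21 ± 4.94 in E2Fa-Dpa and 12.3 ± 6.81 in wildtype, and its value of -0.41 did not pass the test (adjusted p = 0.257). The call of EXLA2 did not hold without replicate 1 or 4 of E2Fa-Dpa or replicate 1 of wildtype (adjusted p up to 0.0845).

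EXLB1 (AT4G17030), the measured gene of the expansin-like group B, had 2.81, 24.8, 30.4 and 13.2 in E2Fa-Dpa, against 59.3, 79.4, 40.0 and 53.4 in wildtype. Here the E2Fa-Dpa arrays with control RNA, replicates 1 and 4, were the lowest. The log2 fold change was -1.19 ± 0.29 (SE, adjusted p = 0.0374), and the call held in 3 of the 8 fits that leave out 1 array. It was lost when replicate 1 or 4 of E2Fa-Dpa, or replicate 1, 2 or 4 of wildtype, was left out, with adjusted p-values up to 0.112.

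Among 4 beta-expansins EXPB3 (AT4G28250) fell. Its signals were 67.9, 136, 129 and 64.8 in E2Fa-Dpa, against 301, 289, 181 and 373 in wildtype, and its log2 fold change was -1.41 ± 0.27 (SE, adjusted p = 0.0166). The E2Fa-Dpa arrays lay apart from the wildtype ones, and those with control RNA were the lowest. EXPB1 (AT2G20750) had 28.9 ± 9.89 in E2Fa-Dpa and 48.6 ± 24.2 in wildtype, with a log2 fold change of -0.47 (adjusted p = 0.35, and 0.0282 when blocked by array set). EXPB2 and EXPB5 were dim, and their values of -0.02 and -0.18 did not pass either test. Leaving out replicate 1 or 4 of E2Fa-Dpa ended the call of EXPB3 (adjusted p up to 0.0558).

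None of the 10 alpha-expansins passed the test without the block (limma; 1, EXPA20, had an unadjusted p under 0.05), and their median was -0.20. EXPA20 (AT4G38210) was the 1 wall gene that rose when blocked by array set (adjusted p = 0.0104, and 0.118 unblocked). It had 78.5, 42.5, 32.5 and 77.6 in E2Fa-Dpa, against 12.2, 25.4, 25.1 and 40.7 in wildtype, and the groups overlapped. EXPA4 (AT2G39700) had 194 ± 19.9 in E2Fa-Dpa and 254 ± 113 in wildtype, a difference within the spread of the wildtype arrays (adjusted p = 0.539). EXPA7 and EXPA18, which act in root hairs, had log2 fold changes of -0.26 and -0.37, and EXPA15 had -0.66, none past the threshold. The other alpha-expansins, EXPA8, EXPA9, EXPA16, EXPA21 and EXPA24, had values between -0.42 and 0.12.

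No XTH gene passed the limma test without a block (lowest adjusted p 0.0935, with 4 at an unadjusted p under 0.05), while 3 of 9 fell when blocked by array set. XTH32 (AT2G36870) had 48.9, 90.6, 84.9 and 54.5 in E2Fa-Dpa, against 542, 422, 69.2 and 143 in wildtype. The wildtype arrays split by array set, and the lowest of them lay among the E2Fa-Dpa values. Its log2 fold change was -1.52 ± 0.53 (SE, adjusted p = 0.124, and 0.00927 with the block), with -0.78 in the arrays with control RNA and -2.25 in those without. The difference between those effects did not pass the test (interaction, adjusted p = 0.212). Unblocked, XTH32 passed in 1 of the 8 fits that leave out 1 array (adjusted p = 0.0269). That fit left out wildtype replicate 3, its lowest wildtype signal, and in the other fits adjusted p reached 0.272.

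XTH33 (AT1G10550), which encodes an XTH anchored in the plasma membrane, had 11.8, 21.5, 25.2 and 10.1 in E2Fa-Dpa, against 59.4, 134, 48.9 and 14.0 in wildtype. Wildtype replicate 4 lay among the E2Fa-Dpa values, and the log2 fold change was -1.07 ± 0.41 (SE, adjusted p = 0.157, and 0.0314 with the block). XTH19 (AT4G30290) had 94.2 ± 12.9 in E2Fa-Dpa and 142 ± 30.3 in wildtype, with a log2 fold change of -0.51 (adjusted p = 0.0935, and 0.0405 with the block). Unblocked, XTH33 and XTH19 each passed in 1 of the 8 fits that leave out 1 array (adjusted p = 0.0312 and 0.0494). That fit left out wildtype replicate 4, the lowest wildtype signal of both genes. In the other fits their adjusted p reached 0.3275 and 0.1992. The direct neighbour of XTH19, XTH18, had -0.29 (adjusted p = 0.539). XTH18 passed within the arrays without control RNA (-0.61, adjusted p = 0.0458 by limma), with 0.04 in those with it (adjusted p = 0.935). XTH16 (AT3G23730) had 234 ± 42.0 in E2Fa-Dpa and 295 ± 140 in wildtype. Its value of -0.24 did not pass the test, and it was 0.36 within the arrays with control RNA and 0.039 without wildtype replicate 2. The other XTH genes, XTH20, XTH21, XTH26 and XTH29, had values between -0.36 and -0.18, and the last 3 had mean signals under 16.

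Among the GH9 glucanases 2 of 15 fell, both of the secreted GH9B class. GH9B13 (AT4G02290) had 23.9, 31.8, 37.1 and 23.9 in E2Fa-Dpa, against 73.2, 59.5, 75.7 and 71.6 in wildtype. Both groups were tight and well apart, and its adjusted p, 0.00573, was the lowest of the 49 members, with a log2 fold change of -0.94 ± 0.14 (SE). GH9B8 (AT2G32990) had 10.9, 14.0, 14.1 and 9.43 in E2Fa-Dpa, against 60.5, 47.7, 27.0 and 66.3 in wildtype. The E2Fa-Dpa signals were under 16 on each array, and the log2 fold change was -1.20 ± 0.20 (SE, adjusted p = 0.00897). For GH9B8 24.0% of the wildtype mean was left, and for GH9B13 41.7%.

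GH9B7 (AT1G75680) had 140, 368, 317 and 142 in E2Fa-Dpa, against 469, 463, 332 and 331 in wildtype. Both groups were lower on the arrays with control RNA. The log2 fold change was -0.79 ± 0.31 (SE, adjusted p = 0.162, and 0.00611 with the block), with -1.15 in the arrays with control RNA and -0.43 in those without. The dim GH9B5 had 4.75 ± 0.394 in E2Fa-Dpa and 9.18 ± 1.51 in wildtype without overlap, and a value of -0.28 (adjusted p = 0.0635, and 0.0295 with the block). GH9C2 (AT1G64390), of the class with a carbohydrate-binding module, had 151 ± 60.9 in E2Fa-Dpa and 238 ± 79.8 in wildtype, and its value of -0.61 did not pass (adjusted p = 0.254). The remaining 10 GH9 genes had values between -0.25 and 0.34, and GH9C1 alone among them had a mean signal of at least 16. They include both genes of the membrane-anchored GH9A class among the members, GH9A3 and GH9A4, at -0.18 and 0.10. The neighbouring genes GH9B16, GH9B17 and GH9B18, at -0.03, -0.02 and 0.34, are also among them.

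Of the 7 wall polysaccharide synthases 2 fell. CSLC04 (AT3G28180), which makes the glucan backbone of xyloglucan, had 119, 200, 173 and 134 in E2Fa-Dpa, against 320, 459, 334 and 276 in wildtype. The groups did not overlap, and 45.0% of the wildtype mean was left, at a log2 change of -1.08 ± 0.19 (SE; adjusted p = 0.0117). The other CSLC genes among the members, CSLC5, CSLC6 and CSLC12, had -0.10, -0.17 and -0.25 (lowest adjusted p 0.388). ATCSLC08, which is no member by the spelling of its symbol, lay on the other side of 0, with 70.3 ± 2.29 in E2Fa-Dpa and 58.1 ± 6.09 in wildtype (SD, n = 4 each). Its 4 E2Fa-Dpa signals were above the 4 wildtype ones, and the log2 change was 0.22 ± 0.12 (SE; adjusted p = 0.29 by limma).

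CSLA03 (AT1G23480), of the group that makes mannan and glucomannan, had 66.5, 70.8, 71.5 and 64.8 in E2Fa-Dpa, against 129, 182, 101 and 114 in wildtype. The E2Fa-Dpa arrays were nearly alike and all below the wildtype ones, and the log2 fold change was -0.78 ± 0.17 (SE, adjusted p = 0.0242). CSLA01 was dim in both groups, with -0.14. CSLD2 (AT5G16910), a gene of tip growth in root hairs, had 138 ± 35.4 in E2Fa-Dpa and 170 ± 43.5 in wildtype, and its value of -0.27 did not pass (adjusted p = 0.532). CSLA03 was no longer called once replicate 1, 3 or 4 of E2Fa-Dpa or replicate 1 of wildtype was left out (adjusted p up to 0.0795).

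**Figure D3:**
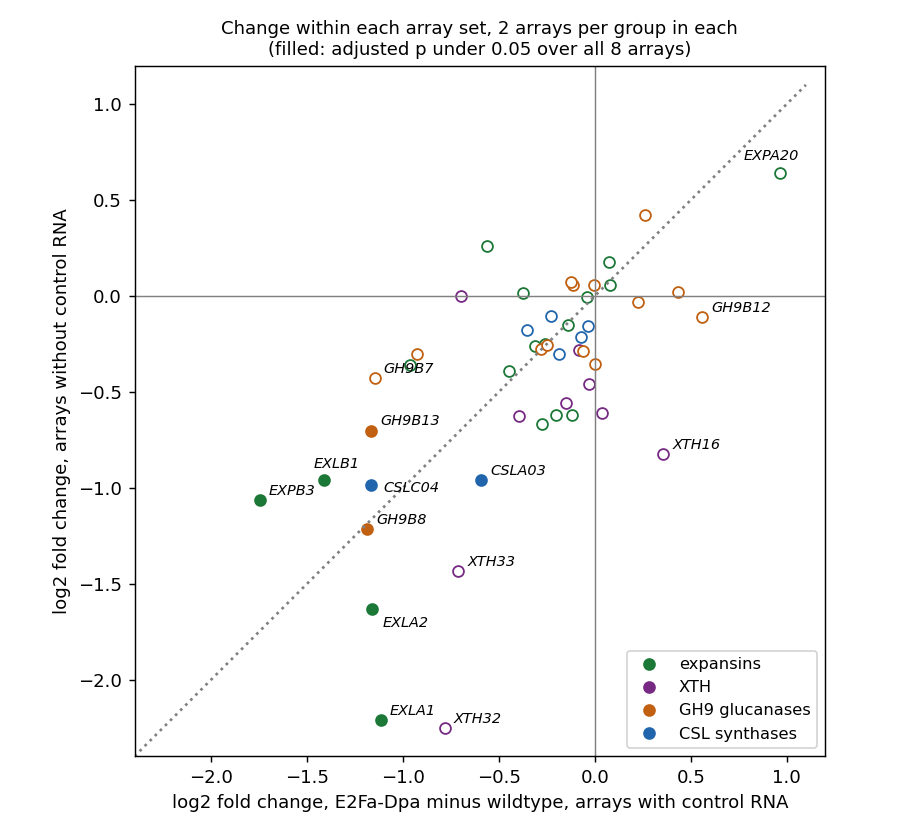
Log2 fold change, E2Fa-Dpa minus wildtype, of each of the 49 probe sets in the arrays with control RNA (horizontal) and in those without (vertical), with 2 arrays per group in each. Filled points passed over all 8 arrays, and the dotted line marks equal values. The 8 filled points lie below 0 on both axes, while XTH16 lies at 0.36 and -0.83.

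All 8 fallen genes had a value below 0 within both array sets. As their calls came from these same arrays, this is no separate test of them. Of the 49 members 34, or 69.4%, were below 0 in both array sets, and 33.2% of all probe sets were. Within the arrays with control RNA 6 members fell and 1 rose, where 2.95% of all probe sets fell and 3.75% rose. Within the arrays without it 13 fell and none rose (1 was higher at an unadjusted p under 0.05), where 5.14% fell and 5.51% rose. The gene that rose in the arrays with control RNA was GH9B12 (0.56, adjusted p = 0.0431), singled out after its values were seen, and it is dim. For no member did the effect differ between the array sets past the threshold (interaction, lowest adjusted p 0.149), as it did for 0.0835% of all probe sets.

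The array sets themselves differed in these genes. In the fit with the group in the model, 18 of 49 members, or 36.7%, were lower in the arrays with control RNA and 1 was higher, EXPA20, against 16.5% and 9.73% of all probe sets. The alpha-expansins EXPA9 and EXPA16 had array set differences of -0.79 and -1.22, in log2 units (adjusted p = 0.000615 and 0.000939), while their group effects were -0.15 and -0.42. For EXPA16, signals of 18.3 and 16.9 in E2Fa-Dpa and 30.4 and 29.0 in wildtype came from arrays with control RNA, and signals of 72.4 and 56.4 in E2Fa-Dpa and 71.6 and 109 in wildtype from those without. In this gene the array set difference was larger in size than the group difference. That also held for other members, among them EXPA9, GH9B7 and EXPB1, though not for all, as EXLA1 shows. Of the 8 fallen genes 3 also differed between the array sets, EXLA2, EXLB1 and CSLC04, each lower with control RNA.

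**Figure D4:**
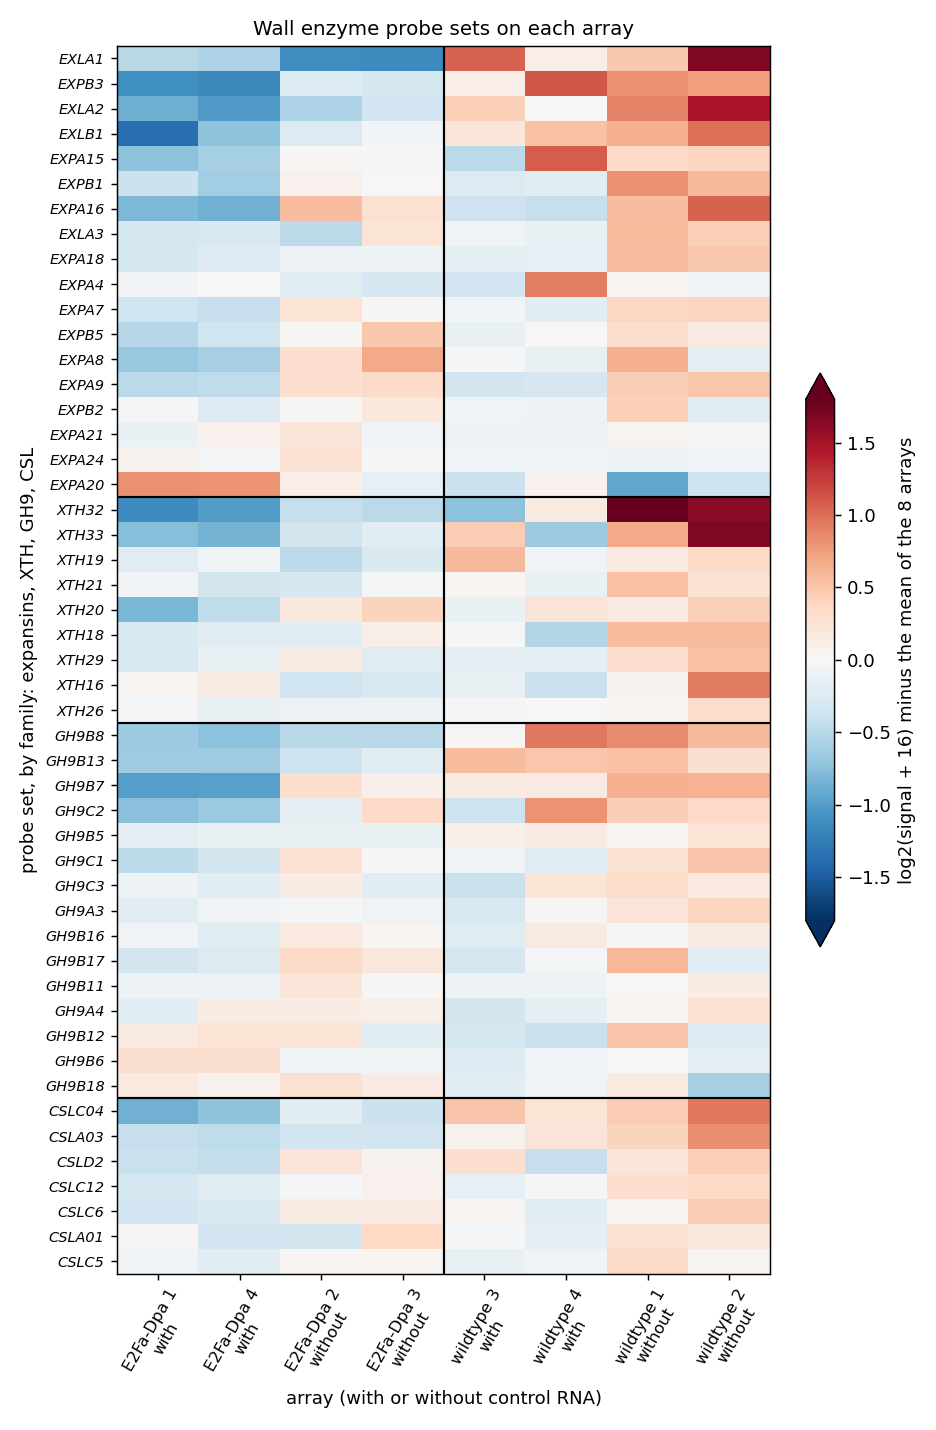
Each row is 1 probe set and each column 1 array, E2Fa-Dpa left and wildtype right, within each group first the arrays with control RNA. Colour gives log2(signal + 16) minus the mean of the 8 arrays. Rows are ordered within each family by log2 fold change, lowest first, so that rows at the top run mostly blue on the left and red on the right. EXPA16 and EXPA9 run by array set instead.

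Other wall genes could be set beside the families only in part. Of 46 genes written down for cellulose synthesis, xyloglucan side chains, xylan, pectin, nucleotide sugars and wall sensing, 5 had a probe set of their own in the annotation used. The others may still be on the array. Of the 5, 1 fell and none rose. THE1 (AT5G54380), a receptor kinase of the response to reduced cellulose in the wall, had 101, 110, 117 and 106 in E2Fa-Dpa, against 230, 367, 258 and 216 in wildtype. Its E2Fa-Dpa arrays were all alike and lower, at a log2 change of -1.16 ± 0.16 (SE; adjusted p = 0.0035, and 0.04 with the pairs as a random block). The related receptor kinase FER had -0.08 (adjusted p = 0.883). COB, which orients cellulose deposition, had -0.61 (adjusted p = 0.104, and 0.0183 when blocked by array set), and the xylan synthase genes IRX10 and IRX10L had -0.16 and 0.09.

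Of the markers of organs and cell types, genes of the root and green tissue lists passed the test, and none of the root hair, stomatal lineage, trichome and shoot meristem lists did. Both measured root genes of 8 written fell, PYK10 with 2586 ± 106 in E2Fa-Dpa and 3923 ± 522 in wildtype, and PER57 with 207 ± 56.0 in E2Fa-Dpa and 365 ± 50.9 in wildtype. Their summed signal, most of it from PYK10, ranged from 2648 to 3007 in E2Fa-Dpa and from 3848 to 4956 in wildtype. The log2 fold changes of the 2 genes were -0.59 and -0.80 (adjusted p = 0.0329 and 0.0324). Each kept its call in 2 of the 8 fits with an array left out (adjusted p up to 0.11 for PYK10 and 0.104 for PER57), and in neither did it hold with the pairs as a random block (0.158 and 0.116). Of 7 green tissue genes 4 were measured and 1 fell, PRK with -0.78 (adjusted p = 0.0292), which kept its call in 3 of the 8 fits and lost it with the pairs as a random block (0.131). PSAN and LHCB4.1 of the same list had -0.34 and -0.37 (limma, adjusted p = 0.107 and 0.161, and 0.0236 and 0.0628 when blocked by array set). In both, all E2Fa-Dpa signals lay below the wildtype ones. PORB, of the same list, had a value above 0, 0.52 (adjusted p = 0.149, and 0.0308 when blocked by array set). The summed signal of the 4 genes ranged from 8064 to 9827 in E2Fa-Dpa and from 9990 to 12027 in wildtype. The 2 measured root hair genes of 8 are the expansins EXPA7 and EXPA18, given above. The trichome gene TRY and the meristem gene CLV3 were near the lowest signals. No gene of the xylem and phloem lists had a probe set of its own in the annotation used. Measured in this paragraph means having such a probe set, so other listed genes may still be on the array. Of 4 genes of the stomatal lineage 3 were measured, and all lay above 0, SPCH with 0.50 (adjusted p = 0.104, and 0.0383 when blocked by array set). The part of organ or cell type shares in the wall gene results was not tested.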

How the data were processed

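The deposited values are intensities, 1 linear signal per probe set and array, made by the authors with MAS5 per the submitters' processing notes. The scaling target and detection calls are not given in the sources used here. Of 22810 probe sets, 64 controls were left out and 22746 tested. The platform annotation names 1 gene for 13513 of them, and all 49 members were found in RefSeq's gene table (assembly TAIR10.1), used for names, loci and neighbours.

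Signals were taken as log2(signal + 16), a scale on which fold changes understate those of dim probe sets, and the contrast of E2Fa-Dpa over wildtype came from limma 3.58.1 under R 4.3.3 (lmFit, eBayes with a trend, no covariate). All adjusted p-values are from limma with Benjamini-Hochberg adjustment over all tested probe sets, threshold 0.05. The procedure was tested on simulated data in which all arrays were independent. Those data held no close pairs or array sets, so that test cannot tell how these affect the calls. The number of arrays limits the precision.

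Members and lists were chosen with earlier results of these data known. Genes described singly passed with or without blocking by array set, or had the 3 smallest p or 2 highest mean signals of their family. Others were named after their values were seen. Array sets were read from 27 Bacillus poly-A control probe sets and are not a label. Replicate numbers do not pair the arrays: deviations of same-numbered arrays correlated at -0.52, 0.44, -0.36 and 0.53. Planned promoter and protein comparisons need sequences and were not run.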

Additional observations from a re-analysis of the deposited data

Results flagged for a closer look

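In 4 of 98 sets of 4 arrays, 1 array stood apart from the other 3 by Dixon's test, a rate at which chance alone would mark about 1 set in 20. GH9A4 had a lowest E2Fa-Dpa signal of 2.66 in replicate 1, against 6.90 to 7.35 in the others. EXPA8 had a highest wildtype signal of 243.9 in replicate 1, where the next was 149. XTH26 had a highest wildtype signal of 7.01 in replicate 2, where the next was 2.72. GH9B12 had a highest wildtype signal of 18.1 in replicate 1, where the next was 4.37. None of these 4 genes passed the test of the groups over all 8 arrays.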

How the results depend on the processing

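The 8 calls among the members depended on how the spread between arrays was taken. The count was 4 with the replicate block, 15 blocked by array set, 1 with the pairs as a random block, 13 within the arrays without control RNA, and 0 with each pair averaged (2 against 2, where 2 of all probe sets passed and 8 members had an unadjusted limma p under 0.05). It ranged from 4 to 9 when 1 array was left out, with 5 without wildtype replicate 1 and 4 without E2Fa-Dpa replicate 1 or 4. CSLC04, GH9B13, GH9B8 and EXLA1 kept their calls in all 8 of those fits. The calls of EXPB3, EXLA2 and CSLA03 needed replicates 1 and 4 of E2Fa-Dpa, those of EXLA2 and CSLA03 also wildtype replicate 1, and that of CSLA03 also replicate 3 of E2Fa-Dpa (highest adjusted p 0.0558, 0.0845 and 0.0795). EXLB1 kept its call in 3 of the 8 fits (highest adjusted p 0.112) and lost it with a pseudocount of 1 (adjusted p = 0.0719 by limma).

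By family, the 4 expansin calls became 1 with the replicate block, 0 with the pairs as a random block or averaged, and 1 to 4 with an array left out. The 0 XTH calls (4 at an unadjusted limma p under 0.05) became 3 blocked by array set, 3 within the arrays without control RNA and 0 to 2 with an array left out. The 2 GH9 calls became 1 with a mean signal of at least 32, 4 blocked by array set, 1 with the pairs as a random block and 0 with pairs averaged. The 2 CSL calls became 1 with the replicate block, 0 with the pairs as a random block or averaged, 1 within the arrays with control RNA and 1 to 2 with an array left out. Over all probe sets, 1661 calls became 854 with the replicate block, 4876 blocked by array set, 454 with the pairs as a random block, 2 with pairs averaged and 674 to 1696 with an array left out, among them 717, 940 and 674 without replicate 1, 3 or 4 of E2Fa-Dpa and 946 and 985 without replicate 1 or 2 of wildtype. The cause was not tested.

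With other pseudocounts, scalings, a filter on low signal or another variance prior, 7 to 9 members fell and none rose. In these settings 1626 to 1918 of the probe sets tested passed, falls and rises together. The members' median stayed below 0 in every setting run, between -0.47, over the 27 members kept by the filter, and -0.14. The median over all probe sets tested lay between -0.06 and 0.07. XTH16 changed sign within the arrays with control RNA (0.36), and ranged from -0.41 to 0.039 with an array left out, the sign changing without wildtype replicate 2. The members by RefSeq symbol are the same 49.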
